A study of Gallus gallus with 88 samples.

Results

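The myogenic transcription factors were followed in the hind muscle (M. gastrocnemius, the main calf muscle) of broiler chickens that had been incubated at different temperatures. The set was chosen by symbol and holds MYOD1, MYOG, MYF5, MYF6, PAX7, PAX3, MEF2A, MEF2C, MEF2D and SRF. Of these 10 genes, 9 had a probe set annotated to that symbol alone, out of 11528 genes with such a probe set. MYF5 had none and could not be followed. The 9 genes had 10 of the 20706 probe sets tested, since MEF2D had 2, of which the brighter one stood for the gene. MEF2A had another probe set that it shared with a microRNA, which was not used.

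All eggs came from 1 commercial broiler line and were kept at 37.8 °C except during a treatment window, and every array measured the mRNA of 1 animal. Among embryos sampled at embryonic day (ED) 13, H13 was held at 38.8 °C, L13 at 36.8 °C and C13 at 37.8 °C during ED10 to 13. Among embryos sampled at ED10, H10, L10 and C10 were held at the same 3 temperatures during ED7 to 10. Chickens of the same treatments were sampled after hatch at day 35 (D35) as H13, H10, L13, L10 and controls, of which 2 carried the C10 label and 6 the C13 label. Each of these groups had 8 arrays. The high temperature groups also had a higher relative humidity in their window, so that temperature and humidity cannot be told apart in them, and ED13 embryos are older as well as treated in a later window. Sex was not in the labels.

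The myogenic regulatory factors MYOD1, MYF5, MYOG and MYF6 are basic helix-loop-helix proteins that pair with E proteins and switch on muscle genes. MYOD1 and MYF5 commit precursors to the muscle lineage, MYOG drives the differentiation and fusion of myoblasts, and MYF6 (MRF4) acts late in fibres. PAX3 and PAX7 mark muscle progenitors and later satellite cells, whereas the MADS-box proteins of the MEF2 family and SRF bind muscle promoters together with the regulatory factors. In the limbs of birds these genes act in waves as primary and then secondary fibres form.

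Values are log2 signals as deposited, with array medians of 7.90 to 8.29 for embryos and 6.64 to 6.98 for D35 chickens, so that embryos and D35 chickens were not compared. In the embryos MYOG and PAX3, and at D35 MYOG, PAX7 and PAX3, had means below the 95th percentile of the background control probe sets. This limit was 9.77 in embryos and 9.53 at D35, and it restricts what a small change in these genes can show. A mean below it does not show that a gene was undetected, since the limit exceeded the median of every array. Taken by their median instead, these controls lay at 5.59 (embryos) and 5.33 (D35). MYOG averaged 9.25 in embryos and 7.47 at D35, PAX3 7.02 and 5.83, and PAX7 8.38 at D35. Single values of MYF6 in L10 embryos (lowest 9.45) and of PAX7 at ED10 (lowest 9.54) lay below the limit too. The mean of 22 measured sarcomere and muscle enzyme genes ranged from 9.99 to 12.03 in embryos and from 10.59 to 12.39 at D35. The mean of 15 cartilage markers ranged from 7.34 to 9.64 in embryos and that of 10 skin and feather markers from 5.70 to 10.41, against 6.13 to 6.48 and 5.06 to 5.58 at D35, so that both lists varied far more among embryos. The animal numbers fell into 2 series whose meaning is not given, with H groups in the first, L groups in the second and controls in both. Members of a bulk sample can differ because fewer cells of a type were present or because each cell held less of the mRNA, and these cannot be told apart.

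Between ED10 and ED13 the calls among the factors were rises of MEF2 genes and of MYF6, and none was called lower. MEF2A rose at all 3 temperatures, MEF2C at control and high temperature, MYF6 at control and low temperature and MEF2D at high temperature. No difference between temperatures follows from this, since no member passed when the rises were compared directly. MYOD1, MYOG, PAX7, PAX3 and SRF did not pass the test at any temperature. Thus 3 of 9 members rose in C13 against C10, 3 in H13 against H10 and 2 in L13 against L10 (limma, Benjamini-Hochberg adjusted p under 0.05). Of all probe sets 11.8%, 14.3% and 9.76% rose, and 28.2%, 26.6% and 25% passed in either direction. The share of members called was close to the latter, so their number alone does not set the factors apart.

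**Figure D1:**
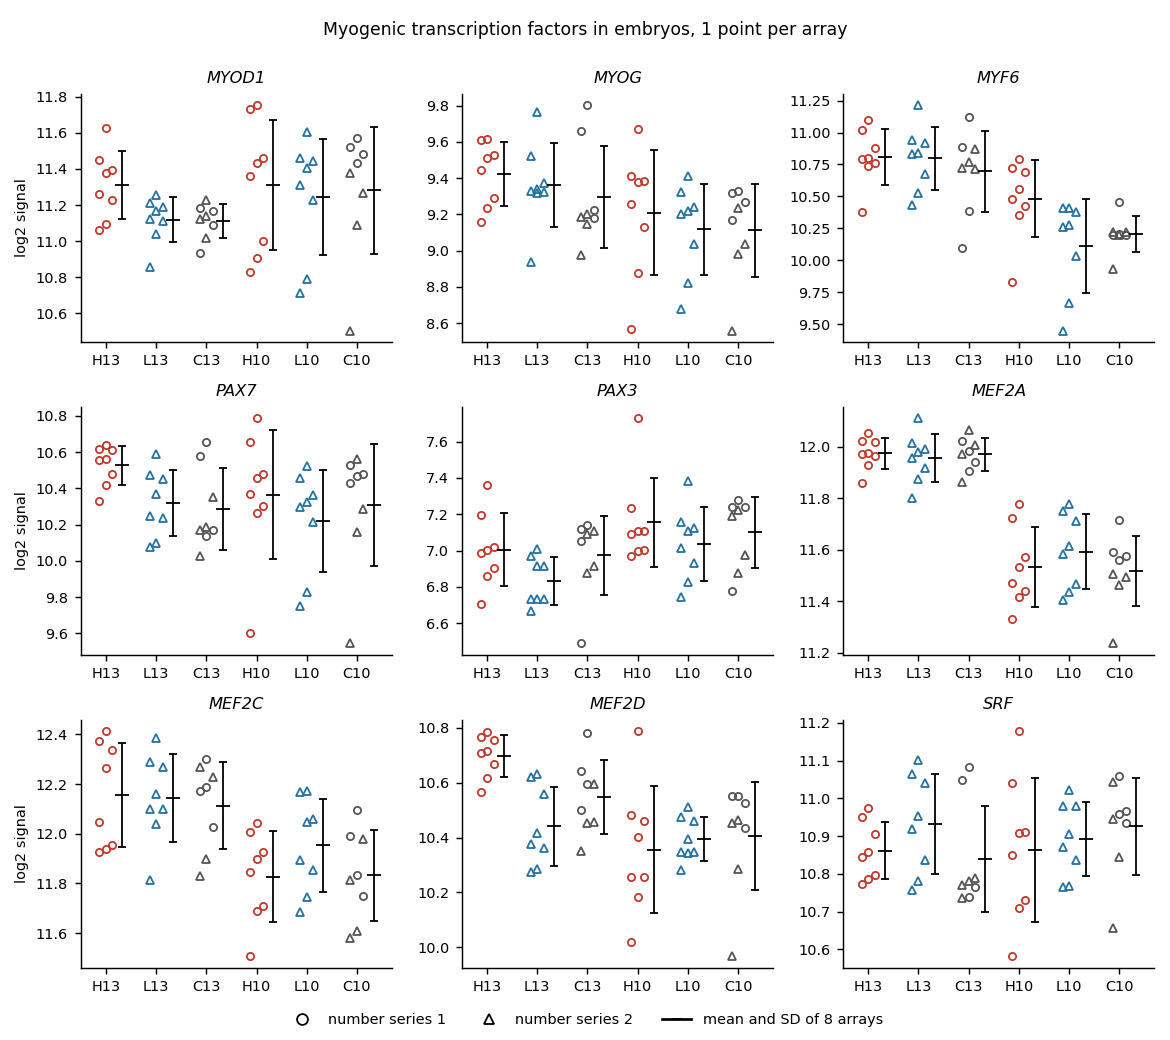
Log2 signal of each of the 9 genes (vertical axis, 1 panel per gene with its own scale) on every embryonic array, in the groups H13, L13, C13, H10, L10 and C10. Circles and triangles are the first and second series of animal numbers, and the bar beside each group is the mean with its SD over 8 arrays. The 24 MEF2A values at ED13 all lie at or above 11.80 and those at ED10 at or below 11.78.

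MEF2A, the MEF2 gene whose protein is present in most muscle cells, gave the clearest difference. Its log2 signal was lowest 11.86, median 11.98 and highest 12.06 in C13 embryos, against 11.24, 11.53 and 11.71 in C10 embryos. In H13 embryos it was 11.86, 11.97 and 12.05, against 11.33, 11.50 and 11.78 in H10 embryos. In L13 embryos it was 11.80, 11.97 and 12.11, against 11.40, 11.60 and 11.78 in L10 embryos. The groups did not overlap in any of these comparisons, a pattern that 8.29%, 7.27% and 7.63% of all probe sets showed in C13 against C10, H13 against H10 and L13 against L10. The difference was 0.45 ± 0.060 (SE, adjusted p = 7.51e-08), a 1.37-fold rise, in C13 against C10. It was 0.44 ± 0.060 (adjusted p = 1.53e-07) in H13 against H10 and 0.36 ± 0.060 (adjusted p = 6.82e-06) in L13 against L10.

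MYF6, the regulatory factor of maturing fibres, had the largest rise of a member. In L13 embryos its log2 signal was lowest 10.43, median 10.84 and highest 11.21, against 9.45, 10.27 and 10.41 in L10 embryos. In C13 embryos it was 10.10, 10.75 and 11.12, against 9.93, 10.20 and 10.46 in C10 embryos. In H13 embryos it was 10.38, 10.79 and 11.10, against 9.83, 10.52 and 10.79 in H10 embryos. L13 and L10 did not overlap, as in 7.63% of all probe sets. C13 reached down into C10, and H10 reached up to the middle of H13. The difference was 0.69 ± 0.14 in L13 against L10 (adjusted p = 0.00011, a 1.61-fold rise) and 0.49 ± 0.14 in C13 against C10 (adjusted p = 0.00444, 1.41-fold). In H13 against H10 it was 0.33 ± 0.14 with an adjusted p of 0.0714. The rises at the altered temperatures did not differ detectably from that at 37.8 °C, with −0.17 ± 0.19 for high and 0.20 ± 0.19 for low temperature (both with adjusted p over 0.05). Within the controls of the first number series alone the difference of MYF6 in C13 against C10 was 0.36 with an adjusted p of 0.29.

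MEF2C, which acts with MYOG in differentiating muscle, lay between 11.83 and 12.30 in C13 embryos with a median of 12.18, against 11.58 to 12.10 with a median of 11.83 in C10 embryos. It lay between 11.93 and 12.41 (median 12.16) in H13 embryos, against 11.51 to 12.04 (median 11.87) in H10 embryos. In L13 embryos it spanned 11.81 to 12.38 (median 12.13), against 11.68 to 12.17 (median 11.97) in L10 embryos. All 3 pairs overlapped, most widely at low temperature. It rose by 0.28 ± 0.093 in C13 against C10 (adjusted p = 0.0179) and by 0.33 ± 0.093 in H13 against H10 (adjusted p = 0.0057), and the difference was 0.19 ± 0.093 in L13 against L10 (adjusted p = 0.138). After quantile normalization neither rise passed the test, with 0.22 (adjusted p = 0.117) in C13 against C10 and 0.25 (adjusted p = 0.0626) in H13 against H10. The rise in C13 against C10 also failed within either number series of controls, at 0.25 in the first (adjusted p = 0.206) and 0.31 in the second (adjusted p = 0.111).

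MEF2D, a member of the family that is also found outside muscle, passed the test in H13 against H10. Its log2 signal was lowest 10.57, median 10.71 and highest 10.79 in H13 embryos, against 10.02, 10.33 and 10.79 in H10 embryos, a rise of 0.34 ± 0.078 (adjusted p = 0.000682). A single H10 embryo reached the top of the H13 range, and the next highest H10 value was 10.48. The second MEF2D probe set gave the same call. Its 8 H13 arrays (10.39 to 10.67) did not overlap the 8 H10 arrays (9.84 to 10.34), as in 7.27% of all probe sets. With the brighter probe set the difference was 0.14 ± 0.078 in C13 against C10 (adjusted p = 0.186) and 0.045 ± 0.078 in L13 against L10 (adjusted p = 0.751). With the second it was 0.20 ± 0.079 in C13 against C10, just short of a call (adjusted p = 0.0557), and 0.074 ± 0.079 in L13 against L10 (adjusted p = 0.57). Whether the rise in H13 exceeded that in C13 was tested directly and did not pass, with 0.20 ± 0.11 and an adjusted p of 0.74.

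**Figure D2:**
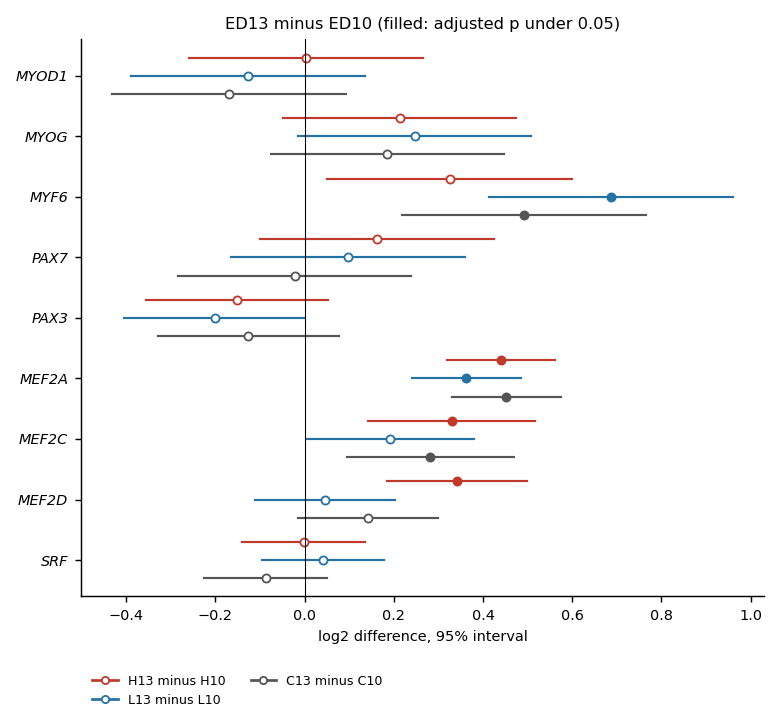
Log2 difference of ED13 minus ED10 embryos (horizontal axis) for each gene, with the 95% interval of the fit, at high temperature (H13 minus H10), low temperature (L13 minus L10) and control temperature (C13 minus C10). Filled points have an adjusted p under 0.05. MEF2A is filled in all 3 comparisons at 0.36 to 0.45, and no filled point lies below 0.

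Neither MYOD1, which commits muscle precursors, nor MYOG gave a call, and MYF5, which also commits them, was not measured. MYOD1 averaged 11.11 ± 0.10 in C13 embryos and 11.28 ± 0.35 in C10 embryos (SD, n = 8 each). The difference was −0.17 ± 0.13, with an interval from −0.43 to 0.092, in C13 against C10, 0.0031 ± 0.13 in H13 against H10 and −0.13 ± 0.13 in L13 against L10. The first of these was −0.41 (adjusted p = 0.113) among controls of the first number series and 0.067 (adjusted p = 0.868) among those of the second. The second series holds C10 replicate 65, which was low in MYOD1 (10.51, the next C10 value 11.09). The estimates of the series were not compared directly. The SD of MYOD1 was between 0.32 and 0.36 in the groups at ED10 and between 0.10 and 0.19 in those at ED13. MYOG, the factor of terminal differentiation, differed by 0.19 ± 0.13, 0.21 ± 0.13 and 0.25 ± 0.13 in C13 against C10, H13 against H10 and L13 against L10 (adjusted p between 0.177 and 0.322). All 3 estimates were above 0 and none passed.

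PAX7, the marker of satellite cells and their precursors, averaged 10.29 ± 0.22 in C13 embryos and 10.31 ± 0.34 in C10 embryos (SD, n = 8 each), with a difference of −0.023 ± 0.13. It differed by 0.16 ± 0.13 in H13 against H10 and by 0.098 ± 0.13 in L13 against L10. PAX3, its paralog in migrating limb progenitors, had estimates below 0 throughout, at −0.13 ± 0.10, −0.15 ± 0.10 and −0.20 ± 0.10 in C13 against C10, H13 against H10 and L13 against L10 (adjusted p between 0.154 and 0.398). SRF, the serum response factor that binds actin gene promoters, differed by −0.088 ± 0.068, −0.0026 ± 0.068 and 0.041 ± 0.068. Its 95% intervals reached from −0.22 to 0.049, from −0.14 to 0.13 and from −0.096 to 0.18, which makes it the member with the narrowest bounds among those not called.

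Within the groups, the level of most factors varied with that of the sarcomere genes. After each group's mean was subtracted, the log2 signal of each member was correlated with the mean of the sarcomere genes over the 24 arrays at ED10, the 24 at ED13 and the 40 at D35, which made 27 relations. At ED10, PAX7 had r = 0.86 (rho = 0.65, permutation p = 4e-05 and 0.00124, adjusted 0.00018), MYOD1 r = 0.85 (rho = 0.79, permutation p = 3e-05 and 5e-05, adjusted 0.000162) and MEF2A r = 0.83 (rho = 0.89, permutation p = 1e-05 for both, the smallest that 100000 permutations give, adjusted 9e-05). At ED10, 8 of 9 members had a permutation p under 0.05, with r from 0.47 to 0.86, where 22.1% of all probe sets had one, and PAX3 had r = 0.12 (permutation p = 0.578). By rank 6 members had one, since MEF2C (rho = 0.40, permutation p = 0.0665) and SRF (rho = 0.42, permutation p = 0.0534) did not.

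At ED13 it was again 8 of 9, by r and by rank, where 25.6% of all probe sets had one. Their r ran from 0.53 to 0.89, and PAX3 had r = 0.24 (permutation p = 0.295). PAX7 had r = 0.89 (rho = 0.90, permutation p = 1e-05 for both) and SRF r = 0.85 (rho = 0.87, permutation p = 1e-05 for both). Without the 2 arrays farthest from the median sarcomere level, PAX7 kept r = 0.81 at ED10 and 0.89 at ED13 and MYOD1 0.82 and 0.61. Within each number series PAX7 had r = 0.94 and 0.81 at ED10 and 0.93 and 0.85 at ED13. Some other members were less stable. MYF6 at ED10 had r = 0.77 with all arrays and 0.57 without the 2 farthest. By number series MEF2D had r = 0.82 and 0.46 at ED10. At ED13 it was 0.46 and 0.84 for MYOD1 and 0.47 and 0.87 for MEF2A. Cartilage and skin content varied between the same samples, and their part in these relations was not tested.

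**Figure D3:**
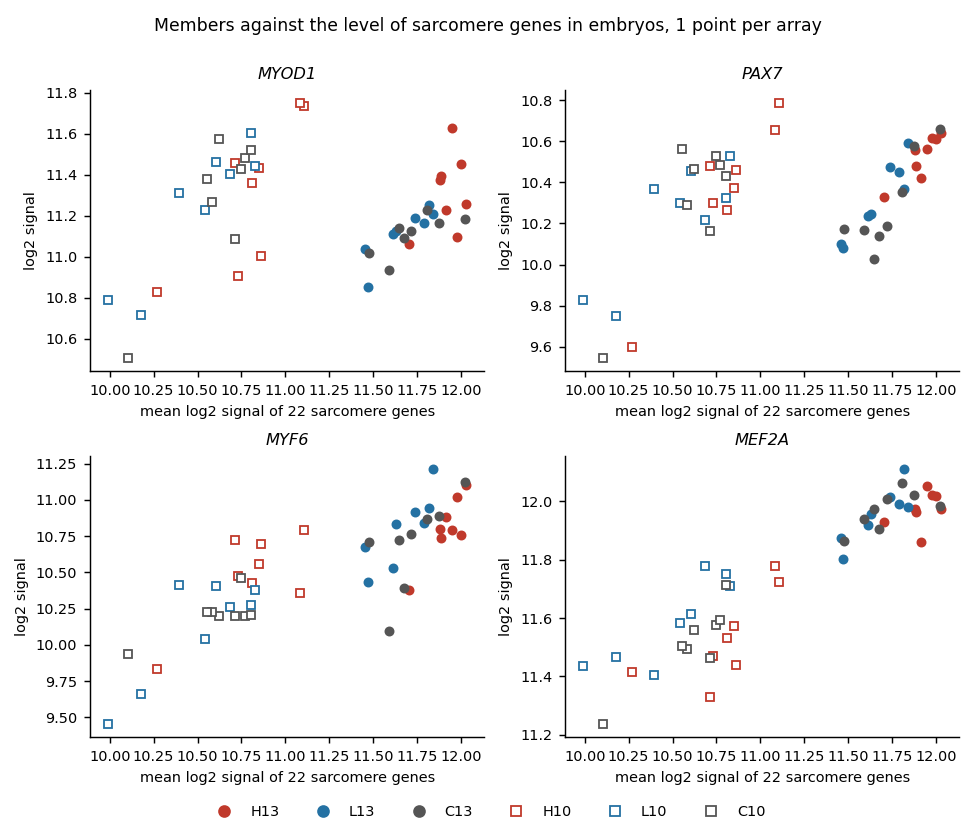
Log2 signal of MYOD1, PAX7, MYF6 and MEF2A (vertical axes) against the mean log2 signal of 22 sarcomere and muscle enzyme genes (horizontal axis) on each embryonic array. Filled circles are ED13 and open squares ED10 embryos, coloured by H, L and C. The ED13 embryos lie to the right of all ED10 embryos, and PAX7 climbs along the axis within each day. After each group's mean was subtracted, which is not done in the plot, PAX7 had r = 0.89 at ED13 and 0.86 at ED10.

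The 4 ED10 embryos with the lowest sarcomere means were L10 61 (9.99), C10 65 (10.10), L10 56 (10.18) and H10 14 (10.27). In PAX7 they gave 9.83, 9.54, 9.75 and 9.60, the lowest 4 of the 24 ED10 values. In MYOD1 they gave 10.79, 10.51, 10.72 and 10.83, again the lowest 4. The sarcomere mean itself was 11.73 ± 0.17 in C13 embryos and 10.61 ± 0.22 in C10 embryos (SD, n = 8 each). When it entered the fit as a covariate, an alternative chosen after the data were seen, no member was higher at ED13, and 6, 5 and 5 members were lower in C13 against C10, H13 against H10 and L13 against L10, MYOD1, MYOG, PAX7 and SRF in all 3. Of all probe sets 11.6%, 6.95% and 10.2% were lower in that fit. It carries the slope within groups across a gap that no array fills, between 11.46 at the foot of ED13 and 11.11 at the top of ED10.

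The other genes of the pathway moved in both directions. Their counts stand beside the 28.2%, 26.6% and 25% of all probe sets that passed in either direction. These shares are of C13 against C10, H13 against H10 and L13 against L10. Among the sarcomere and muscle enzyme genes, 20 of 22 rose and 1 fell in C13 against C10 with a median difference of 1.07, where the median of all genes was −0.025, and H13 against H10 and L13 against L10 gave 20 and 21 rises and 1 fall each. The fast myosin genes MYH1C and MYH1B rose by 4.62 ± 0.25 and 1.91 ± 0.14 in C13 against C10, MYBPC1, which encodes a thick filament protein, by 1.68 ± 0.13 and the Z-disc gene MYOZ1 by 1.61 ± 0.14. Of the 15 cartilage markers, 8, 4 and 11 fell and 1, 2 and 1 rose in C13 against C10, H13 against H10 and L13 against L10. Their median difference in C13 against C10 was −0.87. Of the 10 skin and feather markers none passed in these 3 comparisons. Of 9 fibroblast and matrix markers 5 rose and 3 fell in C13 against C10. Of 9 endothelial and blood cell markers 2 rose and 2 fell. Of 6 pigment and Schwann cell markers 1 rose and 1 fell, while of 5 smooth muscle markers 2 rose. Of 4 tendon markers 1 fell. With so few markers, the pigment and Schwann cell, smooth muscle and tendon counts were close to the 28.2% of all probe sets.

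Among 20 measured MEF2 partners and regulators, 11 rose and 3 fell in C13 against C10 (median 0.18), where 28.2% of all probe sets passed. SIK1, a kinase that keeps class II histone deacetylases off MEF2, rose by 0.83 ± 0.092, and HDAC9, one of those deacetylases, rose by 0.55 ± 0.078. TEAD4, which binds muscle promoters, rose by 0.49 ± 0.078 and its cofactor VGLL4 fell by 0.29 ± 0.041. The counts were 11 and 1 in H13 against H10 (median 0.33) and 8 and 5 in L13 against L10 (median 0.067).

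Among 12 measured partners and inhibitors of the regulatory factors, 3 rose and 4 fell in C13 against C10, with a median difference of −0.11. Of all probe sets 28.2% passed there. The counts were 4 and 5 in H13 against H10 (median −0.17) and 3 and 4 in L13 against L10 (median −0.057). TWIST1 and TWIST2, which hold back the myogenic factors, were lower, with differences of −1.56 ± 0.23 and −1.42 ± 0.22. ID4, of a family that sequesters E proteins, fell to a mean of 9.28 in C13 embryos, against 10.28 in C10 embryos. ZEB1, a repressor that binds E-boxes, rose by 0.48 ± 0.10. TWIST1, TWIST2 and ID4 were also lower in H13 against H10 (−1.36, −1.45 and −0.79) and in L13 against L10 (−1.53, −1.41 and −0.94).

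Among 27 upstream regulators of myogenesis, 5 rose and 10 fell in C13 against C10 (median −0.066), where 28.2% of all probe sets passed. It was 6 and 8 in H13 against H10 (median −0.036) and 4 and 10 in L13 against L10 (median −0.12). EYA4, a cofactor of the sine oculis family, rose by 0.87 ± 0.12 and the Notch ligand JAG2 by 0.63 ± 0.10. The growth factor gene BMP4 and FST, which encodes its antagonist follistatin, were lower, at −0.63 ± 0.088 and −0.70 ± 0.097. Among 7 acetylcholine receptor and synapse genes, 3 rose and none fell in C13 against C10 (median 0.14), where 28.2% of all probe sets passed. The cholinesterase anchor COLQ rose by 1.01 ± 0.15, the fetal receptor subunit CHRNG by 0.83 ± 0.14 and the receptor-clustering RAPSN by 0.59 ± 0.12. In H13 against H10 and L13 against L10, 3 and 4 of the 7 rose and none fell (medians 0.35 and 0.43).

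Among 13 satellite cell genes, 2 rose and 4 fell in C13 against C10 (median −0.039), where 28.2% of all probe sets passed. The counts were 4 and 3 in H13 against H10 (median 0.060) and 3 and 3 in L13 against L10 (median 0.0065). The dystroglycan gene DAG1 rose by 0.94 ± 0.090 and the syndecan gene SDC4 by 0.46 ± 0.11. SDC3, another syndecan, and the calcitonin receptor gene CALCR were lower, at −1.15 ± 0.12 and −1.54 ± 0.17. Among 17 adhesion and fusion genes none rose and 4 fell in C13 against C10 (median −0.015), a share close to the 28.2% of all probe sets. Those that fell included the cell surface receptor genes BOC (−0.83 ± 0.088), STAB2 (−0.48 ± 0.11) and NEO1 (−0.26 ± 0.062). In H13 against H10 there were 4 rises and 1 fall (median 0.0032), and in L13 against L10 1 rise and 3 falls (median −0.043). These shares were close to the 26.6% and 25% of all probe sets. No gene of this list passed when the changes at high and control temperature were compared directly. Among 16 SRF cofactors and targets 5 rose and 6 fell in C13 against C10 (median 0.087), where 28.2% of all probe sets passed. In H13 against H10 4 rose and 2 fell (median 0.078), where 26.6% passed. In L13 against L10 8 rose and 3 fell (median 0.17), where 25% passed. In C13 against C10 the immediate early gene EGR1 rose by 0.56 ± 0.088 and the smooth muscle myosin MYH11 by 1.48 ± 0.26, while the cofactor ELK3 (−0.39 ± 0.071) and the target CYR61 (−0.70 ± 0.14) were lower.

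The altered incubation temperature itself gave no call among the factors in embryos. None of the 9 members passed in H13 against C13, L13 against C13, H10 against C10 or L10 against C10, where 0.00966%, 0.0193%, 0.13% and 0% of all probe sets passed. At an unadjusted p under 0.05 in limma, 1 member stood out in H10 against C10 and none in the other 3, where 9.3% of probe sets passed in H10 against C10, 10.4% in H13 against C13, 7.4% in L13 against C13 and 4.3% in L10 against C10. The direct tests of whether the temperature effect differed between the windows gave no member either (0.00966% of probe sets at high and 0% at low temperature).

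MYF6 was the member that stood out in H10, with a lowest, median and highest log2 signal of 9.83, 10.52 and 10.79 in H10 embryos, against 9.93, 10.20 and 10.46 in C10 embryos. The difference was 0.28 ± 0.14 with an adjusted p of 0.53. The groups overlapped, since 1 H10 embryo lay below the whole C10 group. In H13 embryos all 9 estimates against C13 were above 0, from 0.0041 to 0.24, and H13 embryos had the sarcomere mean 11.92 ± 0.10, against 11.73 ± 0.17 in C13 embryos (SD, n = 8 each). All 10 skin and feather markers were below 0 in the same comparison, with a median of −1.03, but none passed. All 10 were also below 0 in H10 against C10 (median −0.67), where none passed either. Their mean signal was 7.92 ± 1.36 in H13 and 9.01 ± 1.45 in C13 embryos. With this mean as a covariate 6 of the 9 estimates of members in H13 against C13 were below 0, and the cause was not tested. Against the C13 embryos of the first number series, to which all H13 embryos belong, 3 were below 0, MYOG at −0.043, MEF2C at −0.014 and SRF at −0.048, and PAX7 was 0.14. The largest estimate against all C13 embryos was that of PAX7, at 10.33, 10.56 and 10.64 in H13 embryos, against 10.03, 10.18 and 10.66 in C13 embryos. Both groups reached the same height, but the C13 embryos spread further down (difference 0.24 ± 0.13, adjusted p = 0.517). MEF2D differed by 0.15 ± 0.078 in H13 against C13 (adjusted p = 0.505). Its second probe set, which is not in the counts of members, differed by 0.17 ± 0.079 (unadjusted p = 0.0404 in limma, adjusted p = 0.456).

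**Figure D4:**
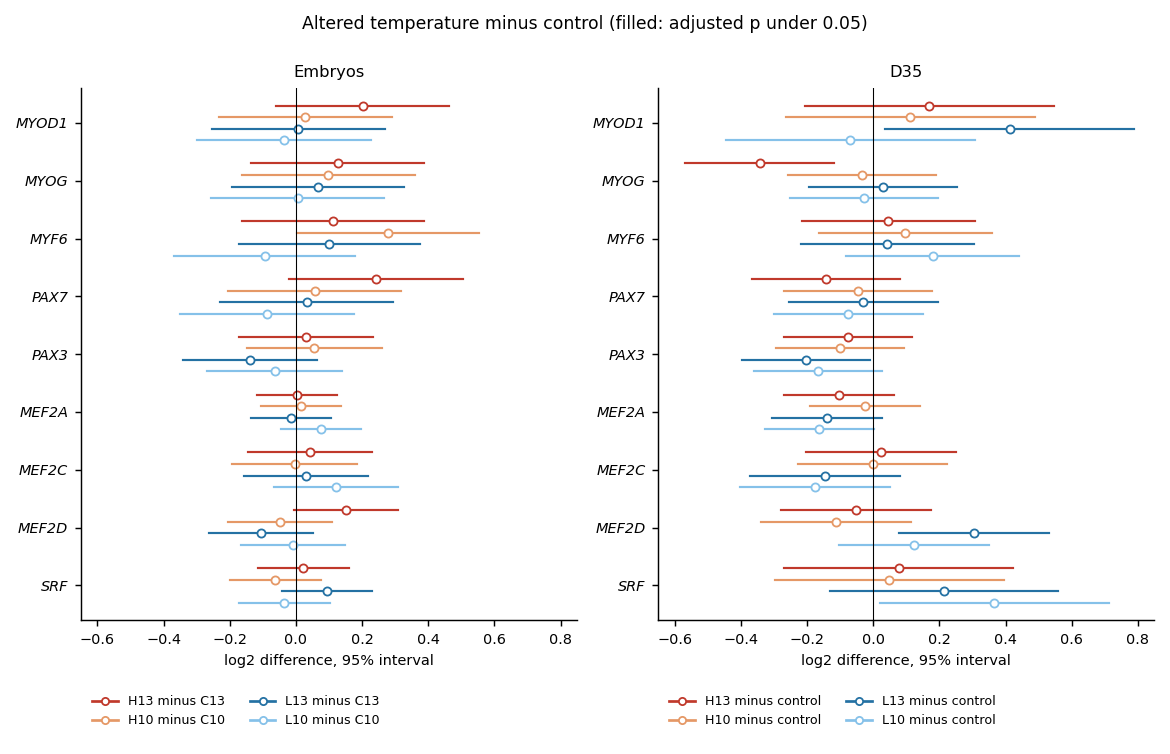
Log2 difference of the altered temperature minus its control (horizontal axis) for each gene with the 95% interval of the fit, in embryos on the left and at D35 on the right. H13, H10, L13 and L10 run from the top within each gene, and no point is filled because no adjusted p was under 0.05. The intervals at D35 reach 0.79, those in embryos 0.55.

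At low temperature the estimates in embryos against all controls ran from −0.14 to 0.10 in L13 against C13 and from −0.095 to 0.12 in L10 against C10. The 95% intervals of all members in this fit, which pools both number series of controls, stayed within −0.34 to 0.37 and within −0.37 to 0.31. All L embryos belong to the second number series, in which every member was lower than in the first among C10 embryos, though none passed. MYOD1 averaged 11.25 in L10 embryos, against 11.06 in C10 embryos of the second series and 11.50 in those of the first. For PAX7 it was 10.22, against 10.14 and 10.48, so the sign of both estimates turned on the controls. The second series holds C10 replicate 65, which was low in MYOD1 (10.51, the next C10 value 11.09) and PAX7 (9.54, the next 10.16). These comparisons by series were not repeated without that array. MYF6 kept its sign, at 10.11 against 10.14 and 10.27. In L13 embryos MYOG averaged 9.36, against 9.13 in C13 embryos of the second series and 9.47 in those of the first. For SRF it was 10.93, against 10.77 and 10.91. MYF6, PAX7 and MEF2C in L13 also averaged above the C13 embryos of the second series, and MYOD1, PAX3, MEF2A and MEF2D below them. No member passed in L13 against the controls of the second series only. MEF2A, which moved most clearly with age, was the best bounded against all controls, with means of 11.97 in H13, 11.96 in L13 and 11.97 in C13 embryos. At ED10 MEF2A averaged 11.59 in L10 embryos, against 11.42 in C10 embryos of the second series and 11.61 in those of the first. Its sign in L10 therefore also turned on the controls. In the order of group levels its 3 ED13 groups came first and its 3 ED10 groups last, and no neighbours within a day differed by more than their SD.

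At D35 no member passed in any comparison with the controls, where 0.00483% (H13), 0% (H10), 0.0145% (L13) and 0% (L10) of all probe sets passed. At an unadjusted p under 0.05 there were 1 member in H13, none in H10, 3 in L13 and 1 in L10, where 3.91%, 2.83%, 12.7% and 6.29% of all probe sets had one. The comparisons share the same 8 control chickens. None passed between the windows either, in H13 against H10 or in L13 against L10 (0.00483% and 0% of probe sets). At an unadjusted p under 0.05 each had 1 member, MYOG and MYOD1, where 3.77% and 8.02% of probe sets had one.

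MYOG in H13 was lowest 7.06, median 7.15 and highest 7.43, against 7.23, 7.58 and 7.78 in controls. All 8 H13 chickens lay below the control mean and 5 of them below every control. The difference was −0.34 ± 0.11 (adjusted p = 0.935), and against H10, whose values ran from 6.85 to 8.01, it was −0.31 ± 0.11 (adjusted p = 1). MYOG lay below the background limit at D35.

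**Figure D5:**
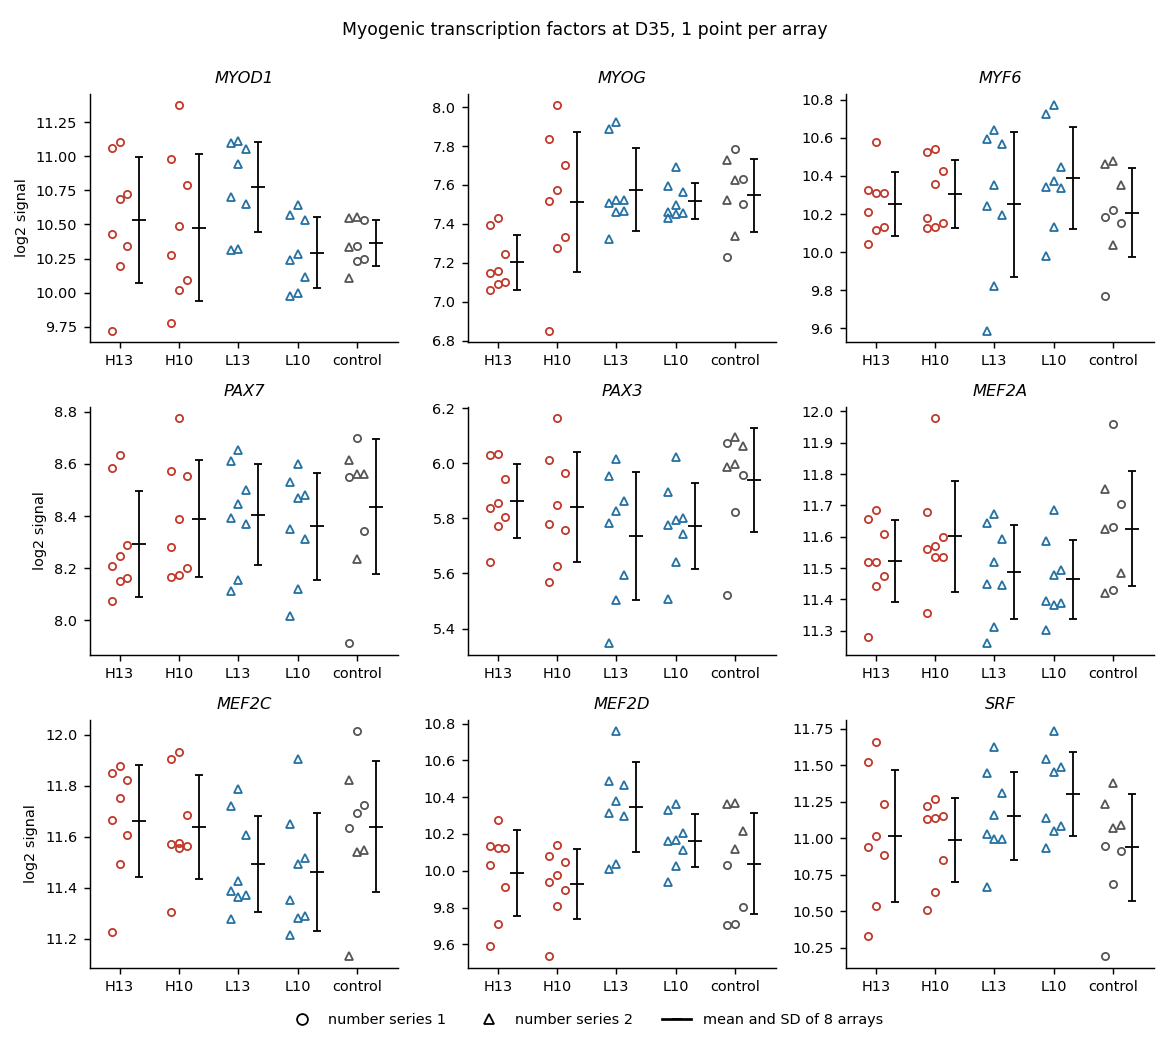
Log2 signal of each of the 9 genes (vertical axis, 1 panel per gene with its own scale) on every D35 array in the groups H13, H10, L13, L10 and control. Circles and triangles are the 2 series of animal numbers and bars are mean and SD over 8 arrays. In MEF2D and SRF the 4 control circles lie below the 4 control triangles.

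MYOD1 in L13 was lowest 10.31, median 10.82 and highest 11.11, against 9.97, 10.26 and 10.64 in L10 and 10.11, 10.34 and 10.56 in controls. Of the 8 L13 chickens, 6 lay above every control and 6 above every L10 chicken, and the other 2 were level with the controls. The difference was 0.41 ± 0.19 against controls (adjusted p = 0.341) and 0.48 ± 0.19 against L10 (adjusted p = 0.592). The SD of MYOD1 was 0.46 in H13 and 0.54 in H10, against 0.17 in controls. The H10 values separated by the mean signal of 18 W-linked probe sets, at 9.78 to 10.28 on the 4 arrays with a high mean and 10.49 to 11.37 on the 4 with a low one, a separation that 3.9% of all probe sets showed in H10, while in H13 these ran from 9.72 to 11.06 and from 10.19 to 11.10 and overlapped.

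MEF2D in L13 ran from 10.01 to 10.76 with a median of 10.35, against 9.71 to 10.37 with a median of 10.08 in controls. The difference was 0.30 ± 0.11 (adjusted p = 0.248). The L13 chickens belonged to the second number series, and the controls themselves were split by it, at 10.12 to 10.37 in the second and 9.71 to 10.03 in the first, with no overlap (difference 0.45 ± 0.14, adjusted p = 0.163, where 0.275% of probe sets passed). Such a split of 4 against 4 control arrays was seen in 9.65% of all probe sets. Against the controls of its own series L13 differed by 0.079 (adjusted p = 1), and against those of the other series, an alternative chosen after the data were seen, by 0.53 (adjusted p = 0.0173).

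SRF was split by number series as well. In L10 it ran from 10.93 to 11.74 with a median of 11.30, against 10.19 to 11.38 with a median of 11.01 in controls (difference 0.37 ± 0.17, adjusted p = 0.778). The controls lay at 11.07 to 11.38 in the second series and at 10.19 to 10.95 in the first, also without overlap (difference 0.51 ± 0.23, adjusted p = 0.387). Against the controls of its own series L10 differed by 0.11. PAX3, which also had an unadjusted p under 0.05 in L13, differed by −0.20 ± 0.096 (adjusted p = 0.365) and lay below the background limit, at 5.35 to 6.01 in L13 and 5.52 to 6.10 in controls.

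At D35 the relation to the sarcomere mean had other signs in some members, and 3 of 9 had a permutation p under 0.05, where 19.5% of all probe sets had one. MEF2A had r = −0.57 with that mean (rho = −0.58, permutation p = 0.00019 and 0.00025, adjusted 0.00057), and r = −0.57 in each number series. PAX7 had r = −0.41 (rho = −0.41, permutation p = 0.0136 and 0.0144, adjusted 0.0216) and MEF2D r = 0.38 (rho = 0.38, permutation p = 0.0229 and 0.0201, adjusted 0.0344). Without the 2 farthest arrays r was −0.50, −0.45 and 0.32 for MEF2A, PAX7 and MEF2D. The other 6 members had r between −0.29 and 0.25 and did not pass. The sarcomere mean was 11.88 ± 0.45 in L13 and 11.22 ± 0.40 in controls (SD, n = 8 each), while the median difference of the 22 genes was −0.012. A higher mean was thus not a rise of most of these genes, and the relations at D35 are to the mean only.

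MEF2C, which lies on chromosome Z in the GRCg7b gene table, differed with the level of the W-linked genes, which only females carry. The mean of 18 W-linked probe sets split the embryos into 23 arrays at 8.69 to 9.32 and 25 at 4.03 to 5.22, and the D35 chickens into 19 at 7.43 to 8.37 and 21 at 3.57 to 4.36. In H13 embryos, the group with the widest gap, MEF2C was 11.93 to 12.05 on the 4 arrays with high W-linked signal. On the 4 with low signal it was 12.26 to 12.41, and the share of all probe sets split so in H13 embryos was not counted. In H10 embryos, with the narrowest gap, MEF2C was 11.51 to 12.01 with high signal, against 11.71 to 12.04 with low signal. In C13 embryos it was 11.83 to 12.19, against 12.17 to 12.30. The mean was lower with high W-linked signal in each of the embryonic and D35 groups, with differences from −0.38 to −0.092.

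With group in the fit, MEF2C differed by −0.24 ± 0.041 between high and low W-linked signal in embryos (adjusted p = 4.12e-05, where 3.13% of probe sets passed) and by −0.24 ± 0.060 at D35 (adjusted p = 0.0114, where 3.09% passed). No other member passed, and the next was MYOD1 at D35 with −0.29 ± 0.11 (adjusted p = 0.173). With the W-linked score as a covariate the difference of MEF2C in L13 against L10 was 0.22 and passed the test (adjusted p = 0.0175). High W-linked signal was found in 4 of 8 L13 embryos and in 3 of 8 L10 embryos.

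The genes whose residuals from the group means were most like those of each member were picked by Pearson correlation over the 48 embryos, and again over the 40 D35 chickens, as a description. For MYOD1 they were XIRP1 (0.89), MYH1D (0.89) and TNNT3 (0.86), for PAX7 ASB2 (0.89), RBM24 (0.89) and SMYD1 (0.89), and for MEF2A HACD1 (0.94), ARPP21 (0.89) and NEXN (0.88), in embryos. Several of these encode parts or regulators of the sarcomere. MYOG went with POPDC2 (0.89), SEMA6B (0.89) and LOC421441 (0.88), and MYF6 with CRYAB (0.84), SYNPO2L (0.82) and SHISA2 (0.82). SRF went with MYOG itself (0.86), SYNPO2L (0.85) and SOX8 (0.84), and MEF2D with MICALL1 (0.79), POPDC2 (0.79) and MYOG (0.78). PAX3 had no gene at 0.6 or above in embryos.

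For MEF2C the most alike were KIF24 (0.88), MAMDC2 (0.85) and TRIM36 (0.84) in embryos and NREP (0.84), ZNF462 (0.83) and KIAA2026 (0.82) at D35, all of which also lie on chromosome Z in GRCg7b. At D35 the likeness between members ran both ways. It was 0.60 for MYF6 and SRF and 0.57 for PAX7 and MEF2A, but −0.58 for MEF2C and SRF, −0.43 for MYOG and PAX7 and −0.42 for MYF6 and MEF2C. The partners at D35 were also other genes. MYF6 went with ZBTB42 (0.79), SAMD8 (0.75) and HSPB8 (0.71), SRF with EDA2R (0.81), VGLL2 (0.81) and KLF6 (0.78), PAX7 with PLEKHO1 (0.78), BEND3 (0.74) and ADGRL2 (0.72), and MEF2A with CALM2 (0.78), CAPZB (0.77) and TBX18 (0.74). For MYOD1 the highest was ZFYVE21 (0.67), for MYOG AQP8 (0.73), for MEF2D PIAS4 (0.69) and for PAX3 BEND4 (0.60).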

How the data were processed

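Total RNA of M. gastrocnemius was hybridised by the authors to Affymetrix chicken gene arrays, 48 from embryos and 40 from D35 chickens. The log2 values were deposited as normalized by the authors, with GCOS 1.1.1 named in the submitters' processing notes, while the summarization, the normalization and the genome build are not given in the sources used here. A second deposited table differed from the first by 0. Symbols came from the array annotation, and linkage from the GRCg7b gene table. The number of arrays limits the precision.

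A mean per group was fitted within embryos and within D35 with limma 3.58.1 in R 4.3.3, with eBayes moderation, no filter on level and Benjamini-Hochberg adjustment over 20706 probe sets (98 control probe sets left out). Unadjusted p-values are those of the same fit. Where a gene had several probe sets, that with the highest mean stood for it. All members were named, with up to 4 genes of each list by the smallest p in C13 against C10, and for each member the 3 most alike genes where the best reached 0.6. The members and lists were chosen with earlier results of these data known. Permutations of correlations were made within groups. As alternatives, the arrays were quantile normalized, median centred or weighted, eBayes was run with a trend and robustly, and dim probe sets were dropped. Others used only the groups compared, the other probe set, a W-linked score, skin or sarcomere marker means or the number series as covariate, other controls and leaving out single arrays. The fit was also run on simulated data with independent noise for each probe set. Such data hold neither variation shared by probe sets nor the number series, so they say nothing on either.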

Additional observations from a re-analysis of the deposited data

Results flagged for a closer look

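Of 99 groups of 8 arrays looked at, 9 genes in each group, 8 held an array that stood far from the rest, while about 1 in 20 would be flagged by chance. In the C10 embryos replicate 65 was lowest in MYOD1 (10.51, the next 11.09), MYOG (8.56, the next 8.98), PAX7 (9.54, the next 10.16) and MEF2D (9.97, the next 10.29). In the H10 embryos replicate 14 was lowest in MYF6 (9.83, the next 10.36) and PAX7 (9.60, the next 10.26). Both arrays were also among the 4 ED10 arrays with the lowest sarcomere means, and without C10 replicate 65 no member changed its call in C13 against C10. In PAX3, H10 replicate 9 was highest (7.73, the next 7.23) and C13 replicate 41 was lowest (6.49, the next 6.88).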

How the results depend on the processing

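Outside the settings that leave out 1 array, the 15 counts of called members were unchanged to within 1.5 times in 171 of 176 instances. In C13 against C10 the count was 1 (MEF2A) with controls of the first number series only, where 4 arrays a group remain and 15.1% of all probe sets passed, and 6, all lower, with the sarcomere mean as covariate (16.1%). In H13 against H10 and L13 against L10 that covariate gave 5 each, all lower (10.3% and 13.9%). In L13 against controls at D35 it was 1 (MEF2D) with the controls of the other series only (3.19%). The cause of these changes was not tested. Leaving out 1 array at a time gave 3 in C13 against C10, 3 to 4 in H13 against H10, 2 in L13 against L10 and 0 in every other comparison.

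Directions were followed for 47 differences of single members, the 27 of ED13 against ED10, the 9 of H13 against C13 and 11 others that had an unadjusted p under 0.05 or tested a difference between effects. Of these 19 kept their direction under every setting run. The sarcomere covariate put all 27 differences of ED13 against ED10 below 0 and so turned 19. In C13 against C10 these were MYOG (−0.91), MYF6 (−0.59), MEF2A (−0.036), MEF2C (−0.18) and MEF2D (−0.40). In H13 against H10 they were MYOD1 (−1.10), MYOG (−0.88), MYF6 (−0.75), PAX7 (−1.04), MEF2A (−0.047), MEF2C (−0.13) and MEF2D (−0.20). In L13 against L10 they were MYOG (−0.89), MYF6 (−0.44), PAX7 (−1.16), MEF2A (−0.15), MEF2C (−0.29), MEF2D (−0.52) and SRF (−0.48). The cause was not tested. Other settings turned 12. MYOD1 in C13 against C10, −0.17 with all controls, was 0.067 with the controls of the second series only and −0.41 with those of the first, and PAX7 was 0.045 with the second. The second series holds C10 replicate 65, the lowest C10 array in both genes. MYOD1 in H13 against H10 was −0.060 with quantile normalization, −0.029 with median centring, −0.032 with the skin covariate and −0.066 without the 4 ED10 arrays of lowest sarcomere mean. SRF in that comparison was 0.024 with array weights. Without those 4 arrays PAX7 in L13 against L10 was −0.046 and SRF −0.00070. Leaving out single arrays gave −0.13 to 0.014 for PAX7 in C13 against C10, −0.066 to 0.066 for MYOD1 and −0.043 to 0.042 for SRF in H13 against H10. In H13 against C13 the skin covariate turned MYOG (−0.036), MYF6 (−0.050), PAX3 (−0.016), MEF2A (−0.026), MEF2C (−0.0068) and SRF (−0.058). Controls of the same series turned MYOG (−0.043), MEF2C (−0.014) and SRF (−0.048), and the series as covariate MYOG (−0.038), MEF2A (−0.039), MEF2C (−0.029) and SRF (−0.040). MEF2A was also −0.011 with quantile normalization, −0.011 with array weights and −0.0028 with controls of the other series. Leaving out single arrays gave −0.039 to 0.073 for PAX3 and −0.011 to 0.020 for MEF2A.

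Among called differences, MEF2C lost its call with quantile normalization and within either series of controls, and MYF6 within the first. MYF6 in H13 against H10 passed with array weights (0.36, adjusted p = 0.0282) and without H10 replicate 9 or H13 replicate 26. MYOG in L13 against L10 passed with the skin covariate (0.29, adjusted p = 0.0263). Leaving out the 4 arrays made MYOD1 lower in C13 against C10 (−0.28, adjusted p = 0.0245) and in L13 against L10 (−0.29, adjusted p = 0.0313), but they were chosen after the data were seen, partly because MYOD1 was low in them, so these values support nothing. No paired analysis was possible because the groups compared share no animal numbers. In ED13 against ED10 MEF2A rose under every setting but the sarcomere covariate.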
